A study of Drosophila melanogaster with 12 samples.

Results

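The comparison set type II neuroblasts of Drosophila melanogaster larvae at 84 h after larval hatching against those at 50 h, the last of the steps between the 4 ages sampled. Its members are the 3 libraries labelled 84 h and the 3 labelled 50 h, which are 6 of the 12 libraries of the series, and all genes of the deposited count table entered with the spike-in rows set apart. Of 15339 genes in that table, 7978 passed the filter on low counts, and 2616 had no count in any library. The other libraries, 3 at 36 h and 3 at 24 h, shared the fit and the estimate of the spread. The labels name no genotype, strain, mutation or treatment for any age, and all larvae were synchronised at hatching and reared at one temperature. GFP-labelled cells were picked from dissociated brains by a robotic sorter and pooled, with 102, 104 and 105 cells per library at 84 h, against 124, 106 and 101 at 50 h. Neither the driver of the GFP label nor the sex of the larvae is stated. Whether same-age libraries stem from different dissections is also unstated, and the p-values therefore rest on a spread that may be technical.

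Neuroblasts are the neural stem cells of the fly. Type II neuroblasts, which lie in the dorsal brain lobes, divide through intermediate progenitors that themselves divide several times, and so give large and mixed lineages. As they age, neuroblasts exchange early factors such as the RNA-binding protein Imp for late ones such as Syp and Eip93F, a progression paced by the steroid hormone ecdysone and by the nuclear receptor Seven-up (svp), which the series title names. The comparison asks which transcripts differ over the last step of that progression in larval life.

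Gene counts were 5677224, 5333622 and 4849110 at 84 h, against 5765181, 4764110 and 4512098 at 50 h. Levels below are CPM, counts scaled to a common total of gene counts, with library sizes adjusted by TMM, and changes are log2 fold changes ± SE, 84 h minus 50 h. A floor of 3 counts lay between 0.520 and 0.665 CPM of unadjusted library size in these libraries. Libraries of the same age differed by a chi-square of 10.7 to 48.1 per degree of freedom, so no 2 of them agreed within sampling noise. The highest values, 34.4 and 48.1, set 84 h replicate 1 against the other 84 h libraries. ERCC spike-ins took 0.599, 0.231 and 0.341% of counts at 84 h, against 0.120, 0.345 and 0.394% at 50 h, so that replicate 1 stood apart at both ages and in opposite directions. The neuroblast factors wor, mira, klu, btd and pnt were present in every library, and ase, which type II neuroblasts lack, stayed between 2.25 and 5.33 CPM at both ages. The gene pros, also expected to be low or absent, was not. It had 78.8, 52.8 and 56.9 CPM at 84 h, against 126, 85.5 and 64.6 at 50 h. In pooled cells, fewer cells of a type and less RNA per cell cannot be told apart.

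By edgeR's quasi-likelihood test with Benjamini-Hochberg adjustment at 0.05, 244 genes differed between 84 h and 50 h, which is 3.06% of those tested. Of these, 93 were higher (1.17%) and 151 lower (1.89%) at 84 h. At an unadjusted p under 0.05 there were 448 higher and 562 lower. The change was at least 2-fold for 49 of the higher and 98 of the lower genes, and at least 4-fold for 18 and 32. The 3 libraries at 84 h did not overlap the 3 at 50 h for 243 of the 244, and the same held for 22.1% of all tested genes. The call depended on the level, with 0.889% of genes called at a mean of up to 10 CPM, 2.97% between 10 and 100 CPM, and 8.43% above 1000 CPM.

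**Figure D1:**
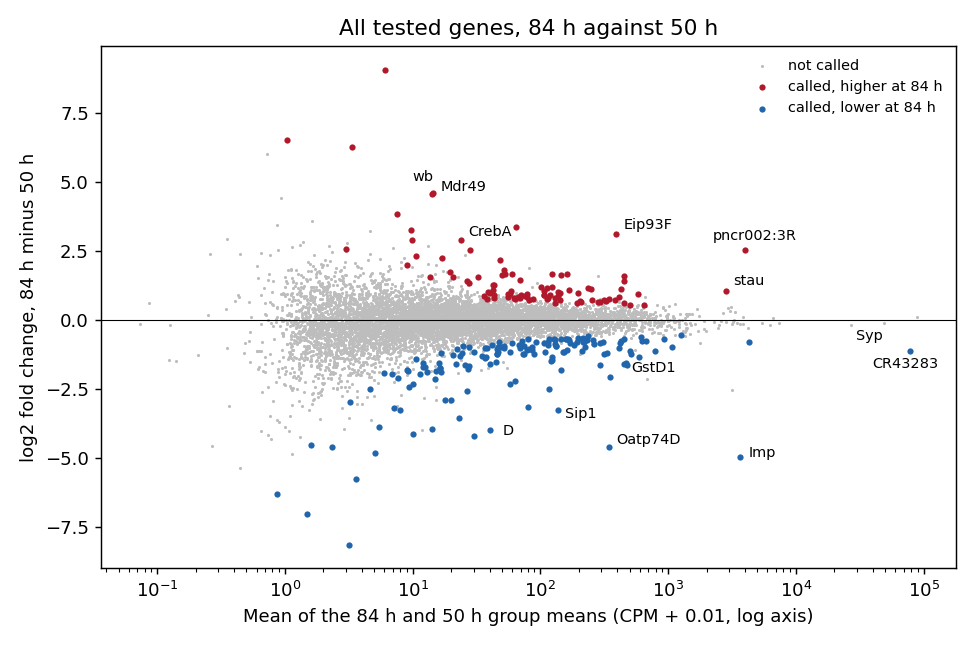
Log2 fold change (84 h minus 50 h) of each tested gene against its mean level (CPM + 0.01, log axis), with 93 called genes higher at 84 h in red and 151 lower in blue. Among called genes with a mean above 100 CPM, Imp at -4.97 lies lowest, and Eip93F at 3.12 and pncr002:3R at 2.56 lie highest.

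The balance of these calls depended on the scaling. With ERCC totals in place of TMM, the median of all tested genes shifted to -0.48 from -0.01, and 33 genes were called, 5 higher and 28 lower. Of the 127 called genes named in the text or chosen by its rules, 22 were called under that scaling too, and none changed sign. Omitting each of the 6 libraries in turn left 109 to 195 calls, the fewest without 50 h replicate 2, and 53 of the 127 were called in all 6 omissions. Directions below are relative to TMM scaling, and the medians of all 46 gene lists described below lay below 0 with ERCC totals. The ERCC share in replicate 1 was higher at 84 h (0.599%) than at 50 h (0.120%). In replicates 2 and 3 it was lower at 84 h (0.231 and 0.341%) than at 50 h (0.345 and 0.394%). ERCC scaling without the replicate 1 libraries was not run, so the direction of the ERCC shift is uncertain.

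Among temporal factors of neuroblasts, 7 of 19 tested were called, 6 lower and 1 higher at 84 h, beside 3.06% of all genes tested. This share of all genes stands beside every list below. Of the 19, 11 lay below 0 and 8 above. Their median change of -1.10, against -0.01 for all genes, was the value of one uncalled gene, Kr (adjusted p = 0.852), and was -0.23 without 50 h replicate 3 and -0.52 without 84 h replicate 1. Imp (FBgn0262735) had 282, 184 and 217 CPM at 84 h, against 7352, 7842 and 6221 at 50 h, a 31.3-fold fall (-4.97 ± 0.24, adjusted p = 1.5e-12). No 84 h library came near any 50 h library, and the fall was -4.84 to -5.15 over the 6 omissions. In the deposited TPM table Imp is listed at 0 in all 3 84 h libraries, unlike in the count table.

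Eip93F (FBgn0264490), an ecdysone-induced transcription factor of late neuroblasts, went the other way. It had 886, 571 and 649.8 CPM at 84 h, against 36.4, 147.9 and 58.6 at 50 h, an 8.70-fold rise (3.12 ± 0.47, adjusted p = 0.00532) that was larger without 50 h replicate 2 (3.90), the highest of its age. The Sox factor D (Dichaete, FBgn0000411) had 3.78, 5.25 and 5.55 CPM at 84 h, against 55.6, 73.3 and 99.5 at 50 h, a 15.6-fold fall (-3.96 ± 0.36, adjusted p = 2.23e-07). The zinc-finger factor cas (castor) had 12.4, 26.6 and 9.02 CPM at 84 h, against 84.4, 120.2 and 224 at 50 h (-3.15 ± 0.65, adjusted p = 0.0333). The libraries of the 2 ages were clear of each other for both genes, but the spread of cas at 50 h was wide, and its adjusted p was 0.0516 to 0.16 in 5 of the 6 omissions, all but that of 50 h replicate 1.

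The BTB zinc-finger factor chinmo, which marks young neuroblasts, had 739.5, 342 and 415 CPM at 84 h, against 1184, 1182 and 903 at 50 h, a 2.18-fold fall (-1.13 ± 0.23, adjusted p = 0.00582). Replicate 1 at 84 h lay nearest to the 50 h libraries, and the call was lost without 84 h replicate 3 (adjusted p = 0.0588) or 50 h replicate 2 (0.0519). Broad (br, FBgn0000210), a BTB zinc-finger factor of the ecdysone response, had 402, 301 and 302 CPM at 84 h, against 896, 832 and 821 at 50 h, a 2.54-fold fall (-1.34 ± 0.23, adjusted p = 0.00131).

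Other temporal factors were not called. Syp (FBgn0038826), an RNA-binding protein that opposes Imp, had 33093, 21468 and 22120 CPM at 84 h, against 28953, 31287 and 25309 at 50 h, and the ages overlapped (-0.16 ± 0.23, adjusted p = 0.867). The nuclear receptor svp had 197, 103 and 142 CPM at 84 h, against 93.4, 124 and 106 at 50 h (0.45 ± 0.22, adjusted p = 0.424). The zinc-finger factor mamo was low at both ages, with 1.55, 1.05 and 1.21 CPM at 84 h, against 9.66, 9.64 and 6.71 at 50 h, and narrowly missed the threshold (-2.75 ± 0.78, adjusted p = 0.0565). Lin29 (0.82 ± 0.24, adjusted p = 0.0700), lin-28 (-1.66 ± 0.57, 0.155), grh, ey, slp1, slp2, Kr, ab and let-7-C did not pass either, with adjusted p-values of 0.07 to 0.852, and hb, nub, opa and pdm2 were too low to test.

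**Figure D2:**
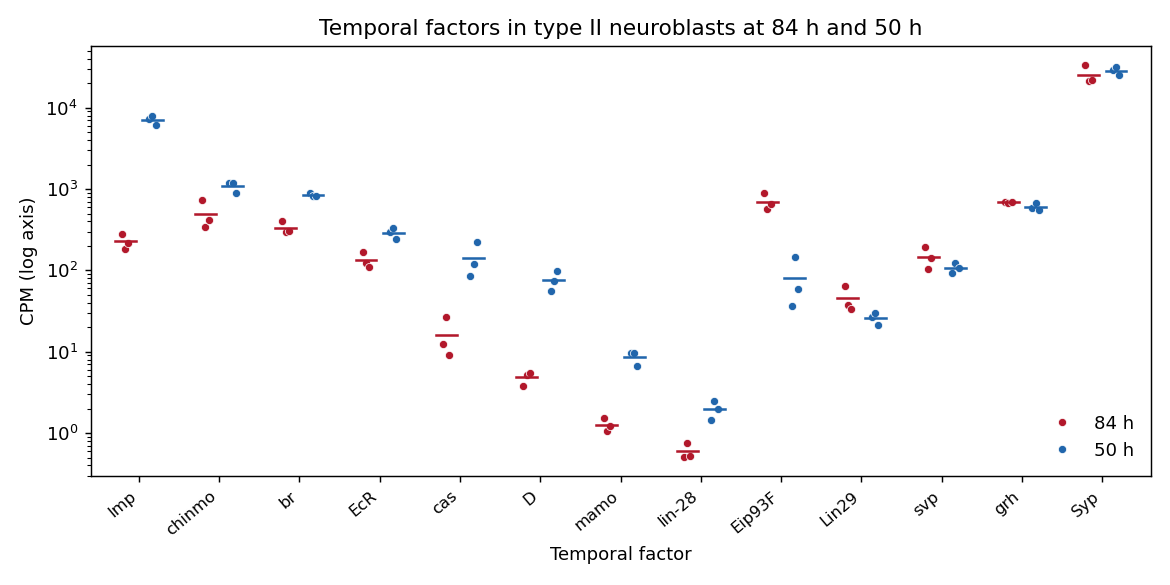
CPM on a log axis of 13 temporal factors in each of the 3 libraries at 84 h (red, left) and at 50 h (blue, right), with bars at the group means. Imp, chinmo, br, EcR, cas and D lie lower at 84 h, Eip93F higher, and Syp and svp overlap between the ages.

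In the ecdysone response the steroid hormone acts on its receptor EcR and a cascade of induced factors. Of 27 tested members, 9 were called, 3 higher and 6 lower at 84 h (33.3%, beside 3.06% of all genes tested). The median of 0.27 was -0.31 with ERCC totals and 0.01 without 50 h replicate 1. Oatp74D (FBgn0036732), the transporter that imports ecdysone into cells, had 51.9, 19.95 and 10.1 CPM at 84 h, against 716, 568 and 703 at 50 h, a 24.3-fold fall (-4.60 ± 0.66, adjusted p = 0.00598). No 84 h library came near the 50 h range, the fall was -5.45 without 84 h replicate 1, and the adjusted p was 0.0516 without 84 h replicate 2.

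EcR (FBgn0000546) itself had 168, 123 and 112 CPM at 84 h, against 299.8, 331 and 246 at 50 h, a 2.18-fold fall (-1.12 ± 0.18, adjusted p = 0.000398). Its coactivator tai (taiman) had 445, 224 and 243 CPM at 84 h, against 760.5, 791 and 598 at 50 h (-1.24 ± 0.22, adjusted p = 0.0014). Its partner usp was not called (-0.19 ± 0.27, adjusted p = 0.861). The 2 ages were clear of each other for both EcR and tai, and both calls held in all 6 omissions.

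Among the induced factors, the nuclear receptor Eip75B fell 1.89-fold (-0.91 ± 0.18, adjusted p = 0.00495). The bZIP factor vri (vrille), also a repressor of the circadian clock, had 156, 244 and 266 CPM at 84 h, against 74.3, 80.03 and 57.1 at 50 h, a 3.15-fold rise (1.66 ± 0.23, adjusted p = 9.69e-05). Eip74EF was not called (1.09 ± 0.74, adjusted p = 0.610). The members that rose were thus Eip93F, vri and ImpL3, and those that fell were EcR, br, Eip75B, tai, Oatp74D and dib. The cytochrome P450 gene dib, an enzyme of ecdysone synthesis, had no count at 84 h, against 1.77, 2.72 and 4.34 CPM at 50 h. Its mean was at least 5.95-fold lower with a floor of 3 counts per library, and its adjusted p of 0.0249 reached 0.151 without 84 h replicate 2.

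Type II neuroblast and general neuroblast identity genes had 0 of 17 called higher and 5 lower by edgeR (29.4%, beside 3.06% of all genes tested). Of the 17, 14 lay below 0, and the median change was -0.65. The 5 were Sp1, tll, CR43283, E(spl)m8-HLH and nerfin-1, of which tll, E(spl)m8-HLH and nerfin-1 are counted in other lists too. As nerfin-1 is also listed among differentiation factors, its fall cannot be assigned to neuroblast identity. The orphan nuclear receptor tll (tailless) had 109.9, 185 and 159 CPM at 84 h, against 236, 341 and 319 at 50 h, a 1.97-fold fall (-0.98 ± 0.20, adjusted p = 0.00496). It was called in all 6 omissions. The zinc-finger factor Sp1, expressed in type II lineages, fell 1.705-fold (-0.77 ± 0.18, adjusted p = 0.0176), a call lost in 3 omissions (up to 0.144, without 84 h replicate 2).

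CR43283, the long noncoding RNA cherub of type II neuroblasts, took the most counts of any gene at 50 h. It had 76484, 33361 and 41089 CPM at 84 h, against 107810, 123050 and 91972 at 50 h (-1.10 ± 0.28, adjusted p = 0.0406). Replicate 1 at 84 h lay between the other 84 h libraries and those at 50 h. The call was kept without that library and lost in the other 5 omissions (adjusted p = 0.0761 to 0.208). The neuroblast factors dpn, wor, mira, klu, btd and pnt were not called, with changes of -0.86 (dpn, adjusted p = 0.155), 0.23 (wor, 0.755), 0.51 (mira, 0.0950), 0.30 (klu, 0.518), -0.05 (btd, 0.973) and -0.65 (pnt, 0.0902).

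Intermediate progenitor and differentiation factors had 5 of 14 called, all lower, with a median of -0.36. The BTB factor fru (fruitless) had 233, 168 and 163 CPM at 84 h, against 402, 469.9 and 457 at 50 h, a 2.35-fold fall (-1.23 ± 0.17, adjusted p = 0.000117). D, nab, nerfin-1 and E(spl)m7-HLH were the others. Fru and D were called in all 6 omissions, while nab, nerfin-1 and E(spl)m7-HLH were lost in 3 to 5. Their adjusted p-values reached 0.188 for nab on omitting 84 h replicate 2, 0.214 for nerfin-1 on omitting 84 h replicate 3 and 0.238 for E(spl)m7-HLH on omitting 84 h replicate 1.

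The machinery of asymmetric division, by which the neuroblast passes fate determinants to its smaller daughter, had 2 members called higher and 1 lower of 27, with a median of -0.10. The RNA-binding protein gene stau (staufen), which carries prospero mRNA, had 4295, 3601 and 3599 CPM at 84 h, against 1797, 2127 and 1586 at 50 h, a 2.09-fold rise (1.06 ± 0.16, adjusted p = 0.000365). It was called in all 6 omissions, the ages not overlapping. The G-protein regulator loco rose 1.91-fold (0.93 ± 0.25, adjusted p = 0.0367) and the G-protein subunit gene Gbeta13F fell 1.61-fold (-0.69 ± 0.15, adjusted p = 0.00692). The loco call was lost in each of the 6 omissions (adjusted p = 0.0517 to 0.159). That of Gbeta13F was lost without 84 h replicate 2 (0.0541) or 84 h replicate 3 (0.0517). Neither aPKC (-0.25 ± 0.18, adjusted p = 0.646) nor brat (-0.21 ± 0.15, 0.635) was called.

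Notch signalling keeps neuroblasts in self-renewal through receptor activation by Dl on neighbouring cells and the bHLH genes of the Enhancer of split complex. The complex also holds Bearded-type genes. Of 33 tested members, 8 were called, all lower at 84 h (24.2%, beside 3.06% of all genes tested). The median of -0.53 was -0.16 without 50 h replicate 3. The called members are named next. They were the ligand gene Dl, the bHLH genes E(spl)m3-HLH, E(spl)m5-HLH, E(spl)m7-HLH and E(spl)m8-HLH, and the Bearded-type genes E(spl)malpha-BFM, E(spl)m6-BFM and Brd. The receptor N (-0.15 ± 0.15, adjusted p = 0.781) and the DNA-binding effector Su(H) (-0.53 ± 0.34, 0.576) were not called.

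The ligand gene Dl had 144, 159.9 and 154 CPM at 84 h, against 196, 274 and 246 at 50 h (-0.64 ± 0.17, adjusted p = 0.0388). E(spl)m8-HLH had 16.8, 25.1 and 16.8 CPM at 84 h, against 33.5, 101 and 156 at 50 h (-2.30 ± 0.53, adjusted p = 0.0416). E(spl)m3-HLH had 0.859, 0.4501 and 1.91 CPM at 84 h, against 2.42, 11.5 and 43.0 at 50 h (-4.13 ± 0.96, adjusted p = 0.0193). In all 3 genes the ages did not overlap, but the 50 h libraries differed among themselves, replicate 1 being the lowest of them.

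Brd, a small inhibitor of the ubiquitin ligase that drives Dl endocytosis, had 0, 0.15 and 0.173 CPM at 84 h, against 7.57, 1.68 and 12.05 at 50 h (-5.76 ± 1.17, adjusted p = 0.00557). It was the single Notch gene called in all 6 omissions, and its fall was -5.15 without 50 h replicate 3. The number of Notch genes called was 10 on omitting 50 h replicate 1 and 1 on omitting 50 h replicate 3, and it was also 1 on omitting 84 h replicate 1 or 3, so the size of the group rested on single libraries. The fall of E(spl)m3-HLH was -2.67 (adjusted p = 0.247) without 50 h replicate 3, which held its highest value. E(spl)m5-HLH had no count at 84 h, against 0.483, 1.68 and 16.8 CPM at 50 h (adjusted p = 0.0259, and 0.270 without 50 h replicate 3). Its 50 h mean was 12.8 times the 84 h floor of 3 counts per library (0.495 CPM). Replicate 3 carried most of that mean, and replicate 1 lay below that floor. E(spl)mgamma-HLH, a target expressed in neuroblasts, had 128, 141 and 92.9 CPM at 84 h, against 142, 334.4 and 378 at 50 h, and did not pass (-1.24 ± 0.34, adjusted p = 0.0849).

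**Figure D3:**
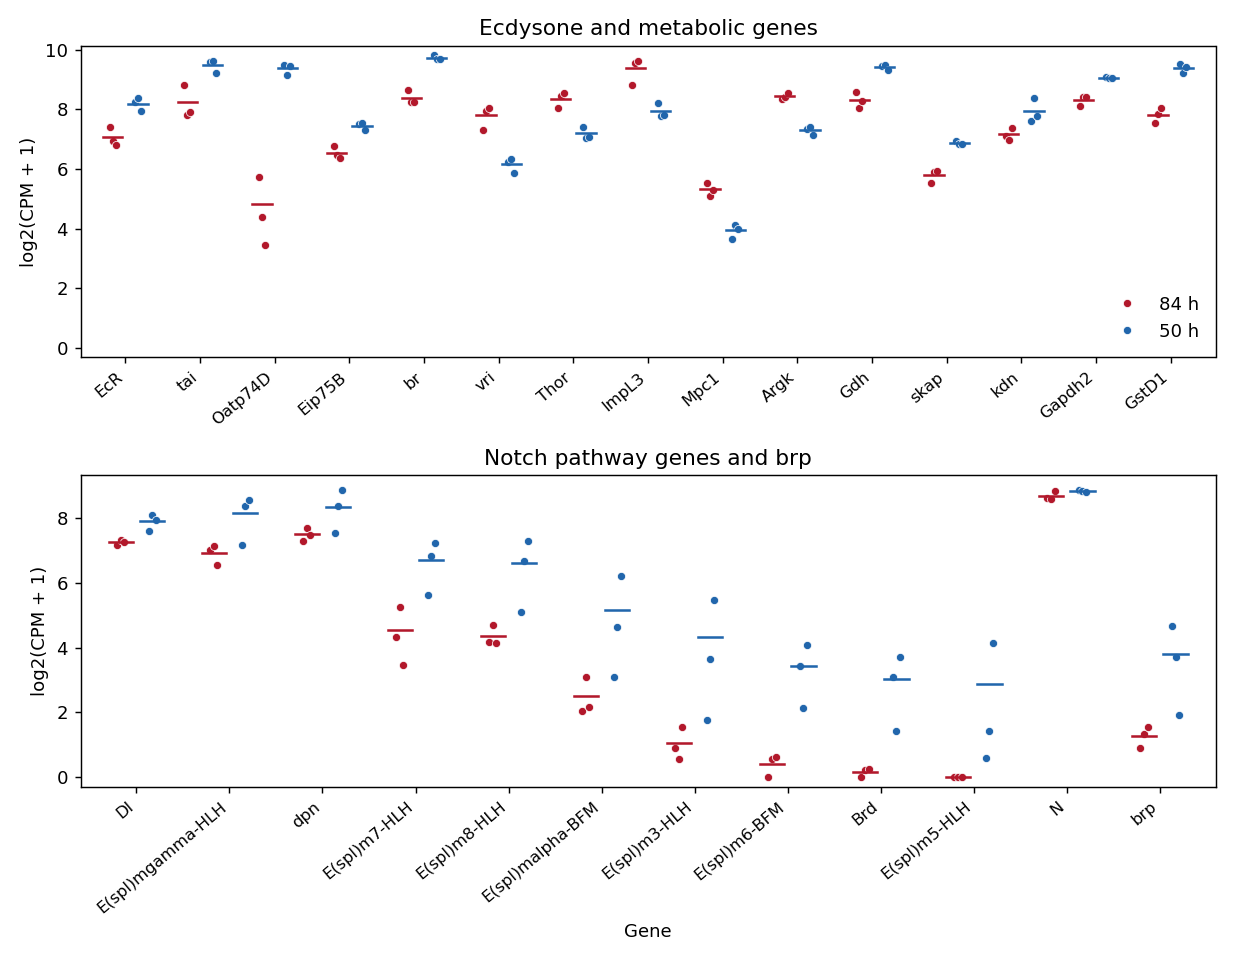
Levels as log2(CPM + 1) of ecdysone and metabolic genes (upper panel) and of Notch pathway genes and brp (lower panel) in each library at 84 h (red, left) and 50 h (blue, right), with bars at the group means. The 84 h libraries of E(spl)m5-HLH lie at 0. The 50 h libraries of E(spl)m3-HLH, E(spl)m5-HLH and E(spl)malpha-BFM spread over several log2 units, and those of E(spl)m7-HLH and E(spl)mgamma-HLH over less.

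Of 51 DNA replication and G1/S genes, 3 were called (5.88%, beside 3.06% of all genes tested), all lower, with 37 below 0 and a median of -0.32. Of 63 mitosis and G2/M genes, 5 were called lower and 1 higher (9.52% in all), with 39 below 0 and a median of -0.15. Cyclin A (CycA), which drives S phase and mitotic entry, had 438, 476 and 467 CPM at 84 h, against 816, 678 and 852 at 50 h (-0.76 ± 0.15, adjusted p = 0.0045).

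Cyclin E (CycE), the G1/S cyclin, had 328, 261 and 227 CPM at 84 h, against 436, 676 and 536 at 50 h (-1.01 ± 0.20, adjusted p = 0.00414), a call lost without 50 h replicate 2 (0.0543). The Cdc25 phosphatase gene stg (string), which triggers mitosis, (-0.77 ± 0.16, adjusted p = 0.00719) and the septin gene pnut (-0.72 ± 0.15, 0.00575) fell. The stg call was lost in 4 omissions (adjusted p = 0.0517 to 0.0706) and that of pnut without 50 h replicate 2 (0.0543). The one gene called higher was feo (fascetto), a microtubule-bundling protein of the cytokinetic spindle, with 236, 169 and 169.8 CPM at 84 h, against 108, 95.5 and 84.1 at 50 h (1.00 ± 0.19, adjusted p = 0.00388).

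RnrL and RfC4, in replication, and Cks30A and endos, in mitosis, made up the rest of the calls, each lost in 4 to 6 omissions, with adjusted p-values of up to 0.284 (RnrL, without 50 h replicate 3), 0.188 (RfC4, without 84 h replicate 3), 0.351 (Cks30A, without 84 h replicate 3) and 0.129 (endos, without 50 h replicate 2). CycB (-0.0049 ± 0.15, adjusted p = 0.995), the kinase gene cdc2 (-0.65 ± 0.30, 0.353), Mcm6 (-0.29 ± 0.19, 0.581) and E2f (-0.53 ± 0.16, 0.0962) were not called.

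Enzymes of the mitochondrial TCA cycle had 5 of 22 called, all lower, with a median of -0.29. Gdh, glutamate dehydrogenase, which feeds glutamate into the cycle, had 379, 265 and 308 CPM at 84 h, against 701, 718 and 644 at 50 h, a 2.17-fold fall (-1.12 ± 0.16, adjusted p = 0.000138). The succinyl-CoA ligase subunit gene skap had 45.4, 58.2 and 60.2 CPM at 84 h, against 123, 114 and 113 at 50 h (-1.09 ± 0.17, adjusted p = 0.000472). Both held in all 6 omissions.

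Citrate synthase (kdn, -0.79 ± 0.19, adjusted p = 0.0201), fumarase (l(1)G0255, -0.67 ± 0.18, 0.0430) and mitochondrial malate dehydrogenase (Mdh2, -0.91 ± 0.25, 0.0458) fell too. These 3 calls were lost in 3, 6 and 5 omissions, with adjusted p-values of up to 0.267 (kdn, without 50 h replicate 2), 0.254 (l(1)G0255, without 84 h replicate 2) and 0.265 (Mdh2, without 84 h replicate 2). By edgeR, 0 of 30 nuclear-encoded respiratory chain subunits were called, with a median of -0.09. Their summed level was 7343, 7575 and 7793 CPM at 84 h, against 9061, 9099 and 9075 at 50 h, and these ranges do not overlap. Among them was ATPsyn-beta, of the ATP synthase (-0.34 ± 0.20, adjusted p = 0.544).

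In glycolysis, 1 of 18 genes was called higher and 1 lower, with a median of -0.35. ImpL3, the lactate dehydrogenase of the fly, had 454, 742 and 795 CPM at 84 h, against 295, 216 and 225 at 50 h, a 2.71-fold rise (1.44 ± 0.31, adjusted p = 0.022). Its call was lost in 4 omissions (up to 0.106, without 50 h replicate 2). Gapdh2 had 276, 342 and 339 CPM at 84 h, against 540.4, 527 and 531 at 50 h, a 1.67-fold fall (-0.74 ± 0.15, adjusted p = 0.00521) that held in all 6 omissions. PyK (-0.55 ± 0.16, adjusted p = 0.0801), Pgk (-0.47 ± 0.22, 0.377) and Ald (0.02 ± 0.15, 0.980) were not called.

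Of 9 glycogen, trehalose and phosphagen genes, which run energy stores, 2 were called higher and 0 lower, with a median of 0.52 that was -0.07 with ERCC totals. Arginine kinase (Argk), which buffers ATP with phosphoarginine, had 322, 341 and 373 CPM at 84 h, against 163, 167 and 139.6 at 50 h, a 2.21-fold rise (1.14 ± 0.18, adjusted p = 0.000527). Glycogen phosphorylase (GlyP) rose 1.59-fold (0.67 ± 0.17, adjusted p = 0.0326), a call lost in each of the 6 omissions (0.0562 to 0.189). In lipid metabolism, with a median of -0.16, 1 of 24 was called, the triglyceride lipase gene bmm (brummer), which fell 2.20-fold (-1.14 ± 0.26, adjusted p = 0.0159) and was lost in 4 omissions (up to 0.12, without 84 h replicate 3).

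Growth and translation genes were called at shares at or below 3.57%, beside 3.06% of all genes tested. By edgeR, 0 of 84 cytosolic ribosomal protein genes were called, with 64 above 0 and a median of 0.14, which was -0.29 with ERCC totals. The summed level of the list was 42808, 56755 and 51368 CPM at 84 h, against 50450, 42556 and 49978 at 50 h, and these ranges overlap. RpS3, of the small subunit, had 1294, 1825 and 2041 CPM at 84 h, against 2356, 2144 and 2268 at 50 h (-0.39 ± 0.18, adjusted p = 0.361). Mitochondrial ribosomal proteins had 0 of 74 called, with a median of 0.05, and translation factors and tRNA synthetases 1 of 51, with a median of 0.14, which were -0.35 and -0.38 with ERCC totals.

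The growth brake Thor, the eIF4E-binding protein of the insulin and TOR pathway, had 263, 348 and 373 CPM at 84 h, against 171, 130.1 and 135 at 50 h, a 2.26-fold rise (1.17 ± 0.21, adjusted p = 0.00158). It was the single call among 28 genes of insulin, TOR and Myc growth, whose median was -0.03. In ribosome biogenesis, with a median of -0.06, 1 of 32 was called, the RNA polymerase I factor Tif-IA, which rose 1.87-fold (0.90 ± 0.19, adjusted p = 0.00598) and was lost without 84 h replicate 3 (0.0706). The translation factor gene eIF-4B rose 1.60-fold (0.68 ± 0.18, adjusted p = 0.0334), lost in 5 omissions (up to 0.149, without 50 h replicate 2).

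The secretory pathway had 3 of 38 genes called higher and 0 lower (7.89%, beside 3.06% of all genes tested). Of the 38, 31 lay above 0, and the median of 0.24 was -0.19 with ERCC totals. CrebA (FBgn0004396), the bZIP factor that drives secretory pathway genes, had 40.03, 40.8 and 45.3 CPM at 84 h, against 6.60, 6.70 and 3.36 at 50 h, a 7.52-fold rise (2.91 ± 0.33, adjusted p = 7.3e-06). The ages were far apart and the call held in all 6 omissions. The folding enzyme gene Pdi had 453, 572 and 553 CPM at 84 h, against 312, 265 and 307 at 50 h (0.83 ± 0.15, adjusted p = 0.00226).

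The calreticulin gene Crc rose 1.68-fold (0.75 ± 0.18, adjusted p = 0.0225), a call lost in 4 omissions (up to 0.148, without 50 h replicate 2). The chaperone gene Hsc70-3 (0.07 ± 0.19, adjusted p = 0.944) and the transcription factor gene Xbp1 (0.16 ± 0.18, 0.810) were not called. Cell death genes had 0 of 17 called by edgeR, with 15 above 0 and a median of 0.26, which was -0.06 with ERCC totals. The caspase gene Ice (0.02 ± 0.26, adjusted p = 0.988) and the caspase inhibitor gene th (-0.04 ± 0.17, 0.966) lay near 0.

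Of surface and signalling genes, the atypical cadherin gene ft (fat), a receptor of growth control and planar polarity, had 158, 139 and 168 CPM at 84 h, against 68.3, 84.4 and 53.7 at 50 h, a 2.25-fold rise (1.17 ± 0.23, adjusted p = 0.00437). In its list of 21 Fat and Hippo genes, with a median of 0.04, the transcription factor gene sd rose 1.53-fold (0.61 ± 0.16, adjusted p = 0.0327) and the polarity gene crb fell 1.97-fold (-0.98 ± 0.27, 0.0477). Both calls were lost in 5 omissions (up to 0.181 without 50 h replicate 3 for sd and 0.316 without 84 h replicate 3 for crb). The planar polarity gene pk (prickle), chosen after its values were seen, had 158, 133 and 133 CPM at 84 h, against 67.3, 59.1 and 57.7 at 50 h (1.20 ± 0.18, adjusted p = 0.000208).

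Hedgehog and Wnt genes had 3 of 27 called, all lower, with a median of 0.14. The heparan sulphate proteoglycan gene dally, a co-receptor for Wnt and Dpp ligands, had 9.10, 2.25 and 1.39 CPM at 84 h, against 29.96, 33.9 and 31.4 at 50 h, a 7.49-fold fall (-2.90 ± 0.45, adjusted p = 0.000338) that was -4.09 without 84 h replicate 1. The Wnt receptor gene fz (-1.17 ± 0.30, adjusted p = 0.0316) and the Wnt antagonist gene nkd (-0.99 ± 0.22, 0.0124) fell as well. Their calls were lost in 5 omissions (fz, up to 0.187 without 84 h replicate 2) and in 2 (nkd, 0.0994 without 84 h replicate 3 and 0.108 without 50 h replicate 2).

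In Activin and Dpp signalling 2 of 16 were called, both lower, with a median of 0.03. The Dpp receptor gene tkv fell 2.05-fold (-1.04 ± 0.24, adjusted p = 0.0174) and the protease gene tld 3.26-fold (-1.70 ± 0.45, 0.0398), each lost in 4 omissions (up to 0.103 without 84 h replicate 3 for tkv and 0.352 without 50 h replicate 3 for tld).

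Axon guidance and adhesion genes had 2 of 49 called higher and 4 lower, with a median of 0.01. The netrin receptor gene unc-5 had 58.2, 43.8 and 48.2 CPM at 84 h, against 87.6, 112 and 118 at 50 h (-1.08 ± 0.22, adjusted p = 0.00532). The adhesion gene rst (roughest) had 2.405, 3.90 and 3.81 CPM at 84 h, against 17.1, 13.4 and 19.9 at 50 h (-2.31 ± 0.47, adjusted p = 0.00575). Both held in all 6 omissions, the ages not overlapping. The guidance ligand gene sli (slit) had 115, 88.8 and 96.9 CPM at 84 h, against 52.8, 47.3 and 67.5 at 50 h (0.84 ± 0.21, adjusted p = 0.0236), lost in 4 omissions (up to 0.139, without 50 h replicate 2). Ten-a, a teneurin of synaptic matching, fell 2.03-fold (-1.02 ± 0.21, adjusted p = 0.00532, and 0.0632 without 50 h replicate 2), and Toll-7 1.76-fold (-0.81 ± 0.20, adjusted p = 0.0231, up to 0.177 without 84 h replicate 2).

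Among 15 laminin, matrix and secreted genes, 1 was called higher and 3 lower, with a median of -0.37. The laminin alpha chain gene wb (wing blister) had 34.9, 16.2 and 31.0 CPM at 84 h, against 2.58, 0.419 and 0.197 at 50 h (4.59 ± 0.83, adjusted p = 0.00191). At 50 h, replicates 2 and 3 lay below the floor of 3 counts and replicate 1 above it, and the rise was 6.38 without 50 h replicate 1. The laminin gamma chain gene LanB2 fell 3.82-fold (-1.94 ± 0.46, adjusted p = 0.0201), lost in 4 omissions (up to 0.103, without 84 h replicate 2).

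The matrix metalloproteinase gene Mmp2 had 78.7, 52.4 and 60.7 CPM at 84 h, against 217, 262 and 195 at 50 h, a 3.52-fold fall (-1.81 ± 0.21, adjusted p = 8.72e-06). Every 84 h library lay well below every 50 h library. It was called in all 6 omissions.

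Membrane transporters had 3 of 33 called higher and 3 lower, with a median of -0.12. The multidrug ABC transporter gene Mdr49 had 14.1, 37.1 and 32.3 CPM at 84 h, against 2.26, 0 and 0.987 at 50 h (4.60 ± 0.86, adjusted p = 0.00329), and the rise was 5.73 without 50 h replicate 1, the highest of its age. The organic cation transporter gene Orct2 had 15.5, 10.1 and 18.2 CPM at 84 h, against 5.32, 1.68 and 3.55 at 50 h (2.02 ± 0.38, adjusted p = 0.00325). Oatp74D, MFS3 (-1.57 ± 0.38, adjusted p = 0.0215, up to 0.119 without 84 h replicate 2) and Prestin (-1.92 ± 0.47, adjusted p = 0.0248) were the members that fell.

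Of 22 heat shock and dissociation stress genes 1 was called, the glutathione transferase gene GstD1, an antioxidant response gene. It had 184, 227 and 263 CPM at 84 h, against 741, 595 and 680.1 at 50 h, a 2.99-fold fall (-1.58 ± 0.18, adjusted p = 8.72e-06). The 2 ages were clear of each other and the call held in all 6 omissions. The median of the list was -0.15.

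Polycomb and trithorax group genes had 2 of 43 called higher and 1 lower (6.98% in all, beside 3.06% of all genes tested), with a median of 0.11. The histone methyltransferase cofactor gene ash2 had 157, 174 and 183 CPM at 84 h, against 72.5, 73.95 and 77.6 at 50 h, a 2.30-fold rise (1.20 ± 0.19, adjusted p = 0.000447) in all 6 omissions. The Brahma complex gene dalao rose 2.05-fold (1.04 ± 0.28, adjusted p = 0.0422) and corto fell 1.77-fold (-0.82 ± 0.22, 0.0434), each lost in 5 omissions (up to 0.218 without 84 h replicate 1 for dalao and 0.264 without 50 h replicate 2 for corto).

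In the list of 10 circadian clock and PAR-bZIP genes, with a median of -0.25, vri rose and the bZIP activator gene Pdp1 fell. Pdp1 had 33.3, 24.5 and 23.6 CPM at 84 h, against 60.1, 74.2 and 57.3 at 50 h (-1.23 ± 0.21, adjusted p = 0.000866). Besides Imp, shep was called lower among 34 RNA-binding regulators with a median of -0.11 (-0.67 ± 0.16, adjusted p = 0.0236, up to 0.162 without 84 h replicate 2). The 1 call among 9 dosage compensation genes, whose median was -0.43, was the male-specific RNA roX1. It had 3626, 2898 and 2850 CPM at 84 h, against 5065, 6046 and 5144 at 50 h (-0.79 ± 0.16, adjusted p = 0.00496, and 0.0626 without 50 h replicate 2). The part of the larvae's sex in the roX1 change was not tested.

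In each of 10 further lists 0 to 2 genes were called, up to 20% of a list (Hox and segmental factors) beside 3.06% of all genes tested. The chaperone gene Droj2 was called higher among 14 chaperonin and folding genes with a median of 0.02 (0.55 ± 0.15, adjusted p = 0.0426, up to 0.201 without 50 h replicate 3). The RCC1 homologue gene Bj1 was called lower among 27 nuclear pore and transport genes with a median of -0.02 (-0.66 ± 0.15, adjusted p = 0.0165, up to 0.0964 without 50 h replicate 1). Hth and tll were called lower among 10 Hox and segmental factors (median -0.35), and sna and nerfin-1 among 12 Snail-family and zinc-finger repressors (median -0.14), where both were lost in 4 or 5 omissions (up to 0.276 without 50 h replicate 2 for sna).

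By edgeR, 0 members were called of 29 proteasome, 23 vacuolar ATPase, 37 chromatin remodelling and histone, 27 Mediator, 24 Rab GTPase and 21 autophagy and lysosome genes, with medians of -0.02, -0.05, -0.01, -0.0035, -0.06 and 0.13. Examples are the proteasome gene Rpn2 (-0.02 ± 0.16, adjusted p = 0.987), the vacuolar ATPase gene Vha55 (0.30 ± 0.19, 0.566), the histone variant gene His3.3B (-0.30 ± 0.15, 0.441), MED26 (0.53 ± 0.17, 0.121), Rab11 (-0.05 ± 0.15, 0.954) and the lysosomal protease gene Cp1 (0.27 ± 0.17, 0.556). Over all 46 lists, 90 of 1178 tested genes were called (7.64%), 25 higher and 65 lower, beside 3.06% of all genes tested (1.17% higher and 1.89% lower). Summed levels did not overlap between the ages for 7 lists that were higher and 12 that were lower at 84 h. No share for sums of other genes was computed, while 22.1% of single tested genes did not overlap. A sum can rest on 1 gene, as roX1 held 3626 of the 4321 CPM of the dosage compensation list in 84 h replicate 1. The median of 14 of the 46 lists changed sign in at least 1 omission. The lists were chosen with earlier results of these data known. The share of list genes called is a description, not matched for level.

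**Figure D4:**
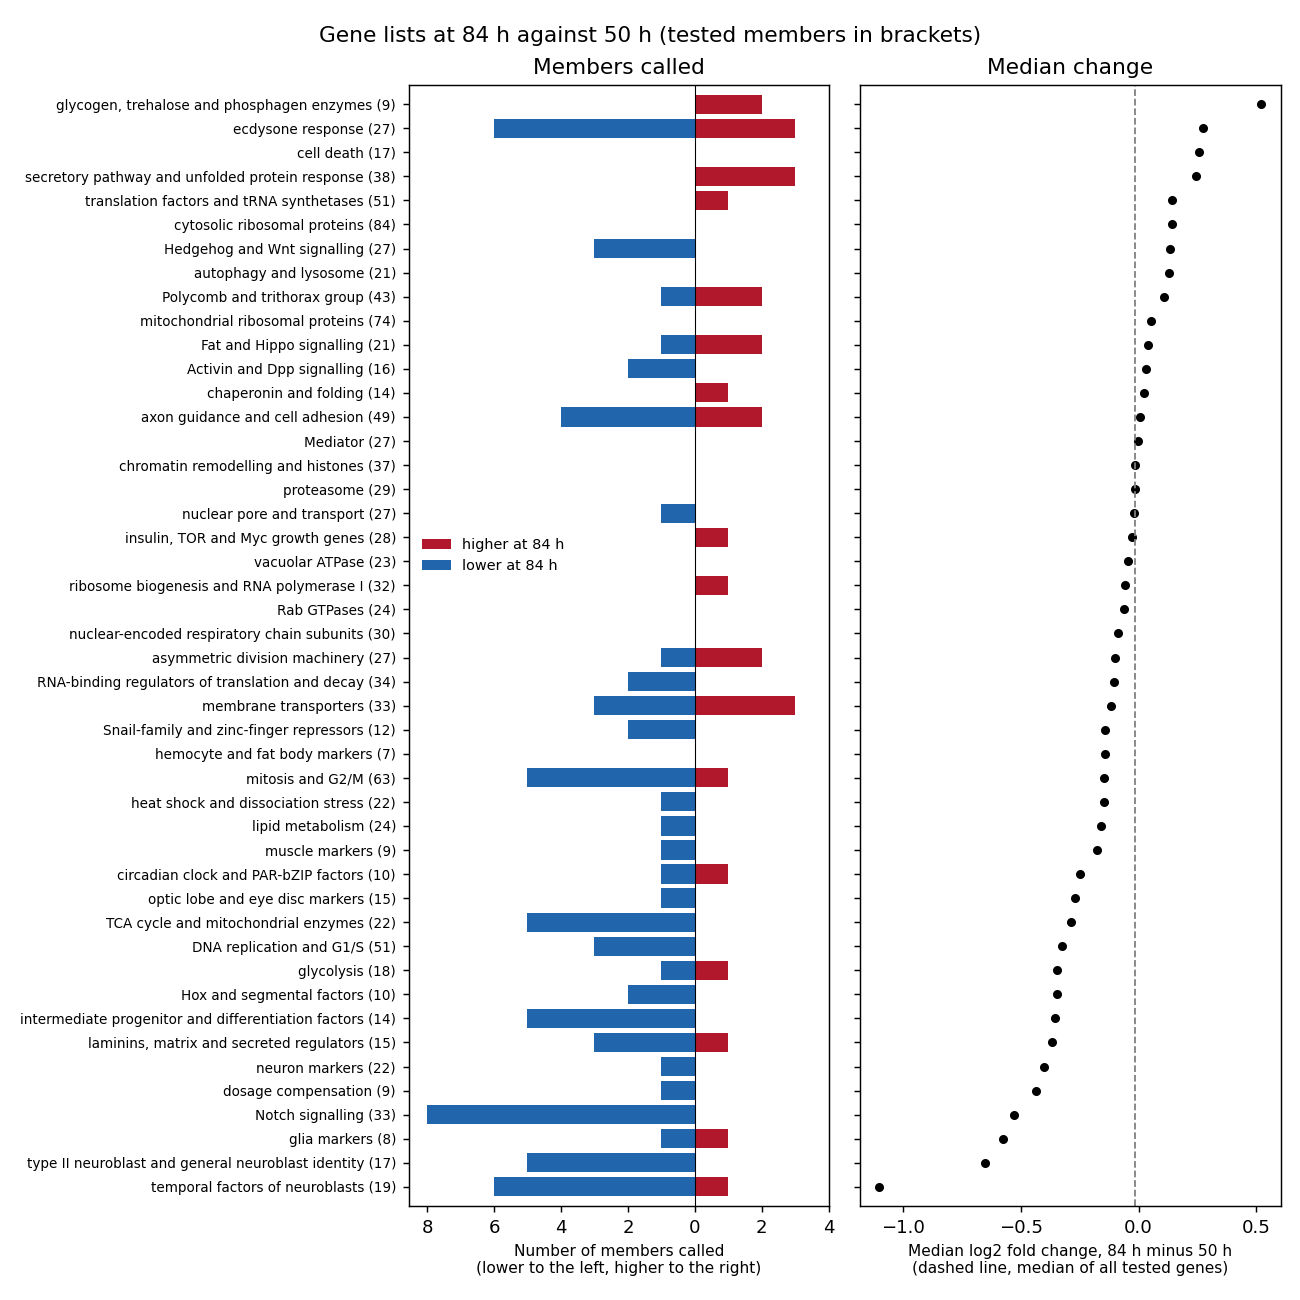
Left, members of each of the 46 gene lists called higher (red) or lower (blue) at 84 h. Right, median log2 fold change of the tested members, with the median of all genes as a dashed line. Temporal factors, at -1.10, lie lowest (in 4 of the 6 omissions too). Glycogen, trehalose and phosphagen enzymes, at 0.52, lie highest (in 5 of the 6). With ERCC totals all 46 medians lie below 0, where that of all genes is -0.48. The ERCC shares of the replicate 1 libraries stood apart, and ERCC scaling without them was not run.

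Outside the lists, the rise with the smallest adjusted p was that of the noncoding RNA pncr002:3R, with 5156, 7300 and 8235 CPM at 84 h, against 1321, 1086 and 1093 at 50 h (2.56 ± 0.19, adjusted p = 6.6e-09). CG13023 had 117, 121 and 113 CPM at 84 h, against 5.80, 18.02 and 9.87 at 50 h, a 10.5-fold rise (3.39 ± 0.41, adjusted p = 1.98e-05). Both were called in all 6 omissions. Adgf-A, a secreted adenosine deaminase, had 13.2, 18.8 and 20.6 CPM at 84 h, against 1.45, 0.838 and 3.16 at 50 h (3.26 ± 0.49, adjusted p = 0.000245), and the rise was 3.89 without 50 h replicate 3. The cuticle protein gene Ccp84Ab had 5.33, 12.3 and 19.1 CPM at 84 h and no count at 50 h (adjusted p = 0.00114). Its mean was at least 21.5-fold higher with a floor of 3 counts per library.

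The splicing factor gene U4-U6-60K had 91.7, 79.97 and 70.9 CPM at 84 h, against 18.2, 34.8 and 22.1 at 50 h, a 3.24-fold rise (1.69 ± 0.36, adjusted p = 0.00863), lost without 50 h replicate 1 (0.0605) or 50 h replicate 3 (0.0553). CG32392 rose 5.05-fold (2.34 ± 0.44, adjusted p = 0.00339), and by 3.72 on the log2 scale without 50 h replicate 2. The other risers with a change of at least 4-fold that the selection named, each lost in 2 or more omissions, were dpr18 (3.87 ± 0.81, adjusted p = 0.00677, up to 0.152 without 84 h replicate 2), CG2680 (2.92 ± 0.75, 0.0330, up to 0.198 without 84 h replicate 3), GstE1 (2.54 ± 0.66, 0.0446, up to 0.217 without 50 h replicate 3) and X11Lbeta (2.25 ± 0.50, 0.0146, up to 0.0694 without 50 h replicate 3). The rise of dpr18 was 4.92 without 50 h replicate 3 and that of GstE1 3.60 without 50 h replicate 1.

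Among the falls, CG10512 had 3.61, 3.90 and 1.73 CPM at 84 h, against 53.2, 65.8 and 51.9 at 50 h, 18.2-fold (-4.19 ± 0.30, adjusted p = 5.37e-09). Sip1 had 44.3, 19.5 and 14.6 CPM at 84 h, against 259, 231 and 251 at 50 h (-3.24 ± 0.27, adjusted p = 1.15e-07), and the fall was -3.85 without 84 h replicate 1, the nearest to 50 h. The cytoskeletal adaptor gene CAP had 6.53, 2.1 and 2.43 CPM at 84 h, against 27.5, 47.3 and 53.5 at 50 h (-3.54 ± 0.37, adjusted p = 2.4e-06), and -4.22 without the same library. Chd64, a calponin-like gene chosen after its values were seen, had 49.3, 25.2 and 30.0 CPM at 84 h, against 158, 227 and 208 at 50 h (-2.50 ± 0.22, adjusted p = 1.15e-07), and the call held in all 6 omissions.

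Also fallen by more than 4-fold, and in all 6 omissions, were osp (-3.26 ± 0.47, adjusted p = 0.000143, and -3.997 without 84 h replicate 1), melt (-2.58 ± 0.34, 5.47e-05) and CG9335 (-3.93 ± 0.56, 0.000143, and -5.14 without 84 h replicate 1). CG6333 fell 14.7-fold (-3.88 ± 0.92, adjusted p = 0.0193), lost in 4 omissions (up to 0.121, without 84 h replicate 2) and at -4.86 without 84 h replicate 1. Genes known only by CG or CR numbers made up 27 of the higher and 32 of the lower calls. The noncoding entries CR41602 (0.12 ± 0.24, adjusted p = 0.908) and CR40677 (-0.10 ± 0.24, 0.935), which with CR43283 took the most counts at both ages, were not called.

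Markers of cells that a sort could carry along were examined beside these results. The summed neuron list ran from 1519 to 1704 CPM at 84 h, against 1435 to 1777 at 50 h, and its median change was -0.40. It holds elav (0.56 ± 0.18, adjusted p = 0.118) and fne (-0.54 ± 0.19, 0.162), RNA-binding proteins of neurons. The synaptic genes were low, n-syb at 0.173 to 2.06 CPM at 84 h, against 1.89 to 6.60 at 50 h, and Syt1 at 0.172 to 1.39 CPM at 84 h, against 0 to 9.02 at 50 h, the upper values lying well above the floor of 3 counts. The single neuron marker called of 22 was brp, the active-zone gene, with 0.859, 1.50 and 1.91 CPM at 84 h, against 24.2, 11.9 and 2.76 at 50 h (-3.17 ± 0.88, adjusted p = 0.0495), lost in 5 omissions (up to 0.391, without 50 h replicate 1, where the change was -2.35). Replicate 1 at 50 h held the highest brp, n-syb and Syt1 and the lowest E(spl)m3-HLH, E(spl)m8-HLH and Dl of its age. It also held the lowest elav of its age (174 CPM, against 240 and 216). Its fne (138 CPM, against 146 and 131) and its summed neuron list (1578 CPM, against 1777 and 1435) lay between the others. The part of other cells in these changes was not tested.

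The glial list summed to 501 to 564 CPM at 84 h, against 595 to 687 at 50 h, with a median change of -0.58 over 8 tested members. Glial markers were low but not all absent. Repo lay at 0 to 0.172 CPM at 84 h, against 0 to 2.96 at 50 h, and wrapper at 0, against 0 to 0.644. Moody lay at 2.08 to 8.07 CPM at 84 h, against 3.36 to 7.12 at 50 h. The gene alrm lay at 1.89 to 4.05 CPM, against 2.57 to 8.05, and Gs2 at 0 to 2.95, against 0 to 4.03. The 2 glial list members called were loco, higher, and Eaat1, a glutamate transporter gene, lower, with 91.7, 97.1 and 91.9 CPM at 84 h, against 190.2, 221 and 212 at 50 h (-1.15 ± 0.17, adjusted p = 0.000245). Hemocyte and fat body genes summed to 122 to 153 CPM at 84 h, against 139 to 168 at 50 h, with 0 of 7 called by edgeR and a median of -0.14.

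The hemocyte gene Hml lay at 0 to 2.25 CPM at 84 h, against 0 to 0.592 at 50 h. Muscle genes summed to 383 to 387 CPM at 84 h, against 371 to 443 at 50 h, with a median of -0.17 and 1 of 9 called, Zasp66 (-1.57 ± 0.37, adjusted p = 0.0201, up to 0.101 without 50 h replicate 1). Of 15 optic lobe and eye disc genes, hth was called lower (-0.71 ± 0.19, adjusted p = 0.0350, up to 0.235 without 84 h replicate 2), the list having a median of -0.27 and summing to 732 to 1060 CPM at 84 h, against 1145 to 1304 at 50 h.

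The means at all ages are described next for genes that were chosen by their 84 h and 50 h levels. That choice excludes a lowest mean at 84 h among the higher genes and favours one at 50 h. The same holds for the highest mean of the lower genes. No such tally was made over all tested genes, so these counts are a description only. The called genes that were higher at 84 h had their lowest mean at 24 h in 16, at 36 h in 26 and at 50 h in 51 cases, and 14 of the 93 rose at every step. The called genes that were lower at 84 h had their highest mean at 24 h in 56, at 36 h in 45 and at 50 h in 50 cases, and 52 of the 151 fell at every step. Imp, with means of 58992, 35397, 7138 and 228 CPM at 24, 36, 50 and 84 h, is of the last kind. EcR, with 107, 172, 292 and 134 CPM, is a gene with its highest mean at 50 h.

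The first step, 36 h against 24 h, shares no library with the late step and had 72 genes called (0.902% of those tested). Of these, 19 were also called in the late step, which is 26.39% of the first and 7.79% of the late calls. Of the 19, 17 moved in opposite directions and 2, hig and nkd, fell in both. The fit and its estimate of the spread were common to both steps.

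Adgf-A, CrebA, CG32392, CR44024, Dys and sli fell in the first step and rose in the late one. CrebA had 15.0 CPM at 36 h, against 55.5 at 24 h (-1.89 ± 0.31, adjusted p = 0.00162), before its 42.0 at 84 h, against 5.56 at 50 h. The other 11, among them br, CycA, Mmp2, Sip1, tkv and Bj1, rose first and fell late. Br had 354 CPM at 36 h, against 94.0 at 24 h (1.92 ± 0.24, adjusted p = 9.79e-05), before its 335 at 84 h, against 849.6 at 50 h.

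**Figure D5:**
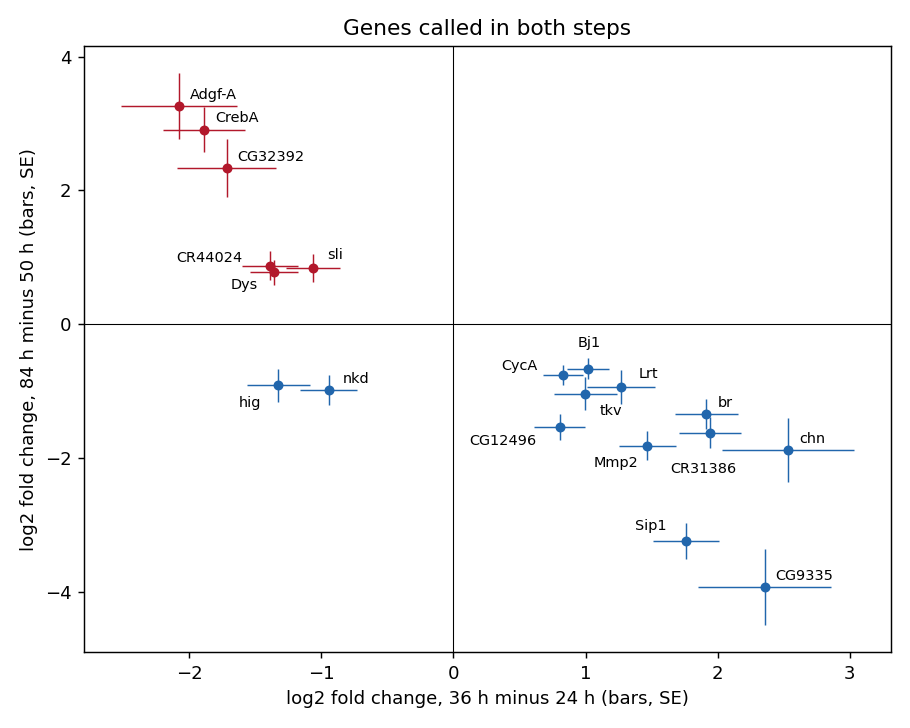
Log2 fold change in the late step (84 h minus 50 h) against that in the first step (36 h minus 24 h) for the 19 genes called in both, with SE bars. The 17 genes in the upper left and lower right moved in opposite directions, and hig and nkd, lower left, fell in both.

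A test of the difference between the late and the first step called 237 genes (2.97%), 126 above 0 and 111 below 0, of which 129 were called in the late step itself. Syp was among them (-4.40, adjusted p = 4.81e-08), its change having been 4.25 in the first step, as was svp (2.18, adjusted p = 0.000162). Nkd (-0.04, adjusted p = 0.970) and hig (0.41, 0.622) were not.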

How the data were processed

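Counts are the authors' deposited whole-number read counts per gene, with 92 ERCC spike-in rows. The labels' protocols describe PicoPure extraction of total RNA, amplification with Ovation RNA-Seq System V2 and Encore libraries. The submitters' processing notes list 3 builds (BDGP5, dm3 and mm10) and, without saying what each did, HTSeq 0.6.1p1, STAR 2.4.0i, Bowtie2 2.1.0, cutadapt 1.7.1 and CASAVA. The strand setting is unknown, so reads of overlapping antisense genes cannot be told apart. TPM values, normalised to transcript length and library size, are the authors' as deposited, and their computation is not described in the labels.

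From the counts, the 12 libraries were fitted together by age with edgeR 4.0.16 in R 4.3.3 (TMM factors, filterByExpr by age, robust glmQLFit, two-sided glmQLFTest), without ERCC rows in library sizes. A row with no symbol, holding 10 counts, was left out. Adjusted p-values are Benjamini-Hochberg values over the 7978 genes tested, which held 99.9% of gene counts, and a gene was called at an adjusted p under 0.05. SE is the log2 fold change divided by the square root of F. The common biological coefficient of variation was 36.2%. Alternatives used limma 3.58.1 on log2(TPM + 1), keeping genes with at least 1 TPM in 3 libraries, and DESeq2 1.42.0. Floors cover counting error only.

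Genes were named by rule. These were the 12 that rose and the 12 that fell most among called genes with non-overlapping ages and a higher mean of at least 10 CPM, 3 CG or CR genes each way, all temporal factors, up to 4 called or 2 abundant uncalled members of each list, the 3 most abundant genes per age and the 6 with the smallest adjusted p for the step difference. Further genes, marked or given as uncalled examples, were chosen after their values were seen. Members and lists were chosen with earlier results of these data known. No genome sequence, promoter or protein table was used here.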

Additional observations from a re-analysis of the deposited data

Results flagged for a closer look

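The change between 84 h and 50 h was set against that between 36 h and 24 h, and 237 genes differed between the steps by edgeR's quasi-likelihood test of the difference (late minus first, log2). The 6 named by the smallest adjusted p among the genes called in the late step follow. CrebA had a difference of 4.80, and Sip1 of -5.003. Imp had -4.23, its change being -4.97 in the late and -0.74 in the first step (adjusted p = 0.0868). The unnamed gene CG10512 had -4.17, with a first-step change of -0.01 (adjusted p = 0.988) and a mean of 113 CPM at 36 h, against 114 at 24 h. Mmp2 had -3.28 and the noncoding CR31386 -3.57, both with a rise in the first step (1.47 and 1.95) and a fall in the late one (-1.81 and -1.62).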

How the results depend on the processing

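Of 244 genes called between 84 h and 50 h (93 higher, 151 lower), ERCC totals left 33 (5 and 28), log2(TPM + 1) 118 (49 and 69), log2(TPM + 0.1) 108 (44 and 64) and log2(TPM + 1) without a filter 104 (38 and 66). Shared with the 244 were 25 with ERCC totals and 97 on log2(TPM + 1). Dropping both replicate 1 libraries of 84 h and 50 h, an alternative chosen after seeing the data because their ERCC shares stood apart, left 162 calls, 51 of them higher and 111 lower. Leaving out each library in turn gave 109 to 195 calls, 40 to 66 higher and 69 to 129 lower, with one library fewer in the age. The other counts stayed within 1.5 times, with 302 for the 6 libraries alone, 234 with RLE factors, 333 without a filter, 206 with a covariate for sorted-cell number and 308 with DESeq2.

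For the difference between the late and the first step, called for 237 genes, ERCC totals gave 78, no filter 419, the sorted-cell covariate 74, DESeq2 383 and the omission of each library 158 to 331. The cause of these shifts was not tested. Of the 127 named called genes, 74 were lost in at least 1 omission, 105 with ERCC totals, 21 with the cell covariate and 57 of the 117 tested on log2(TPM + 1), and 0 changed sign under the alternatives run.

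Over all tested genes, same-numbered libraries of 84 h and 50 h did not deviate together (r = -0.05, -0.11 and -0.07). What the replicate numbers stand for is not stated, and a shared batch was not tested. With a replicate block 271 genes were called, 234 of them shared.

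Depth limits genes near 3 counts per library, and 3 libraries per age limit every p.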

Other observations

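Genes outside the comparisons above, are given here as single genes, chosen after their values were seen and drawn from no list. P5CDh1 and slgA, which encode the enzymes that turn proline into glutamate, were lower at 84 h. P5CDh1, the pyrroline-carboxylate dehydrogenase, had 68.2, 65.7 and 67.98 CPM at 84 h, against 141, 151 and 156 at 50 h (-1.15 ± 0.16, edgeR adjusted p = 0.000117), beside Gdh and Eaat1. Proline dehydrogenase (slgA) fell too (-0.65 ± 0.16, adjusted p = 0.0305) and was lost in all 6 omissions (up to 0.172, without 84 h replicate 3). The mitochondrial pyruvate carrier gene Mpc1 was higher (1.44 ± 0.37, adjusted p = 0.0314), also lost in all 6 (up to 0.148, without 50 h replicate 1).

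Mkp3 and sty, feedback inhibitors of receptor tyrosine kinase signalling, were lower. Mkp3, a phosphatase of ERK, had 11.5, 12.9 and 12.3 CPM at 84 h, against 26.9, 27.9 and 33.0 at 50 h (-1.25 ± 0.26, edgeR adjusted p = 0.00663), in all 6 omissions. The inhibitor gene sty (sprouty) fell by 0.79 on the log2 scale (adjusted p = 0.0416), lost in 5 omissions (up to 0.260, without 84 h replicate 3). The redox genes Trx-2 and GstD3 fell as well. The thioredoxin gene Trx-2 had 108, 104 and 101 CPM at 84 h, against 202, 199 and 259.7 at 50 h (-1.08 ± 0.17, adjusted p = 0.000398), and GstD3 fell by 1.21 (adjusted p = 0.0083, and 0.0583 without 50 h replicate 3). The splicing factor gene Prp3 rose beside U4-U6-60K, with 226, 225 and 237 CPM at 84 h, against 116, 118 and 88.7 at 50 h (1.09 ± 0.21, adjusted p = 0.00325).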
